A study of Mus musculus with 16 samples.

Results

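The mRNA levels of the 10 genes for NF-κB subunits and their inhibitors were followed through T cell activation with and without inhibition of Akt. The genes were taken by symbol and comprised the 5 subunits (Nfkb1, Nfkb2, Rel, Rela and Relb) and 5 inhibitors (Nfkbia, Nfkbib, Nfkbie, Nfkbid and Tnfaip3), out of 18138 genes on the array. All 10 were among the 7395 genes tested, and 7 of them were above background on all 16 arrays. The cells were D10, a fast-growing line derived from 1 mouse Th2 clone and kept in medium with IL-2, so that every group was of the same clone. Akti1/2 is an allosteric inhibitor of Akt1 and Akt2. Control cells received no inhibitor and Akti1/2 cells received 10 µM for 1 h, and both were then stimulated with biotinylated antibodies to CD3 and CD28, linked by streptavidin, for 0, 2, 6 or 12 h. Each of these 8 groups was measured on 2 arrays, 1 on each of 2 chips, and whether the duplicates were separate cultures is not given in the sources used here, so that the tests measure the spread between arrays, which may be technical. The cells at 0 h in the Akti1/2 arm had received the inhibitor but no stimulation. No unstimulated cells were measured at 2, 6 or 12 h, so that effects of stimulation and of time in culture cannot be told apart. A response means the change from 0 h. Control cells are called untreated in the study's methods and are said to have had solvent in its results.

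NF-κB is a family of dimeric transcription factors that inhibitory proteins hold in the cytoplasm of resting cells. Signals from the T cell receptor and CD28 pass through a complex of adaptor proteins to the IκB kinase, which marks the IκB proteins for degradation and so frees the dimers to enter the nucleus. In T cells the pathway drives genes for cytokines, their receptors and survival factors. Several of its own subunits and inhibitors are textbook targets as well, which makes the family a feedback circuit that can be read from mRNA. The arrays measured mRNA and give neither the amount of protein nor its place in the cell.

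The promoters of the genes whose levels turned on the treatments are shown first, because the motif that NF-κB itself binds lies in several of them. Promoter sequences are from RefSeq (GRCm38.p6), and 8 of the 10 genes matched, all but Nfkb1 and Relb. The κB consensus motif, 10 bases long and searched on both strands within 250 bases before each start in the table, was present before at least 1 start in 6 of these 8 genes (8 of 13 start sites). Among all promoters of the same length in the table it was present in 3.9% of 32851 windows and before at least 1 start in 4.46% of 27025 genes. Capitals mark bases in a match on either strand, and matches that overlap run together. A match describes the letters in the window and is not evidence of binding. For Nfkbia, the κB inhibitor whose mRNA rose furthest in control cells at 2 h, the 250 bases before the start on the minus strand (chr12:55492648-55492897) held 1 match 20 bases from the start, and those for Nfkbie on the plus strand (chr17:45555450-45555699) held 1 as well. For Rel on the minus strand (chr11:23770970-23771219) there were 3 overlapping matches counted over both strands, and for Tnfaip3 on the minus strand (chr10:19015411-19015660) there were 2 separate ones. The same span before the start of Rela on the plus strand, shown for its first 151 bases (chr19:5637291-5637441), held none, and nor did that of Nfkbib.
Nfkbia: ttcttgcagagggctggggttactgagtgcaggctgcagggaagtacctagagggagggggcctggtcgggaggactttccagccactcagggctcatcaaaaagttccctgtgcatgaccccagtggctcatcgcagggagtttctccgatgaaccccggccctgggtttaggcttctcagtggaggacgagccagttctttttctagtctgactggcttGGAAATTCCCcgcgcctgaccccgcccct
Nfkbie: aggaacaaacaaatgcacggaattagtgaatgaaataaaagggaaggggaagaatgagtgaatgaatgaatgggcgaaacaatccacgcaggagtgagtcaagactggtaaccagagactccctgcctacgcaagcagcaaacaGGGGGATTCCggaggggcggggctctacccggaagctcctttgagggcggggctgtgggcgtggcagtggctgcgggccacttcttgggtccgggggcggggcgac
Rel: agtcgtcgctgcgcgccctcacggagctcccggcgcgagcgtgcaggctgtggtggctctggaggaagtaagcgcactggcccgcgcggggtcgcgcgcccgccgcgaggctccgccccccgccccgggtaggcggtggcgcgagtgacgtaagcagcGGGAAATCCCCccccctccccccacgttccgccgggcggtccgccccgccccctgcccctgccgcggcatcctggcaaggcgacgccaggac
Tnfaip3: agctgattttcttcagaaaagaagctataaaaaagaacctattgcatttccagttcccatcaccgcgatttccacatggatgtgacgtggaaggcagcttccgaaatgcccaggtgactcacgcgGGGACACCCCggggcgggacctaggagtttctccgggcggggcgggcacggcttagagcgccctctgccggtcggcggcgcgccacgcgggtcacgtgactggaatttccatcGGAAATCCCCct
Rela: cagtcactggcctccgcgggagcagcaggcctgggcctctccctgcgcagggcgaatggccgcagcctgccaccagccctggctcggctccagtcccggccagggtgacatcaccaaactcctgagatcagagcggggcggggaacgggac
For Nfkbid the matches lay before a start inside the gene and not before the outermost one, and for Nfkb2 all 3 start sites in the table lie inside the gene, so that its outermost start was not searched. For both, 30 bases are given on the plus strand. Those of Nfkb2 (chr19:46304688-46304717) lie around matches that overlap, counted over both strands. Those of Nfkbid (chr7:30422170-30422199) lie around 1 match.
Nfkb2: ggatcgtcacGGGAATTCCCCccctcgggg
Nfkbid: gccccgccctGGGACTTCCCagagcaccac

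Levels are bead intensities corrected for background, quantile-normalized and given on the log2 scale, so that a difference of 1 is a doubling. A gene was above background on an array where fewer than 1% of 798 negative control probes reached its intensity, which held for 6288 to 6907 genes per array. Replicate arrays correlated at 0.9855 to 0.994 over the tested genes. Differences were tested with limma in 1 fit of all groups and called at an adjusted p under 0.05, the adjustment running over all 7395 genes in each comparison. Genes that define T cells and Th2 cells were present (all 13 listed markers were tested, 12 above background on all arrays), while all 6 myeloid markers were at background on every array and none of the B cell markers was tested. Of 5 CD8 T cell and NK cell markers, Prf1 alone was above background.

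Most of the family was higher 2 h after the start of CD3/CD28 stimulation than before it. In control cells, 7 of the 10 genes were called higher at 2 h than at 0 h, 8 at 6 h and 8 at 12 h, and none was lower. Over all tested genes, 4.42%, 12.1% and 12.7% were called higher at those times. The median change of the 10 genes was 1.58, 2.33 and 1.75, against medians within 0.03 of 0 for all tested genes. The genes that stayed out were Rela and Nfkbib at all 3 times, and Nfkb2 at 2 h. Every level is an average over all cells of a sample, so that a change in how many cells expressed a gene and a change in RNA per cell cannot be told apart.

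**Figure D1:**
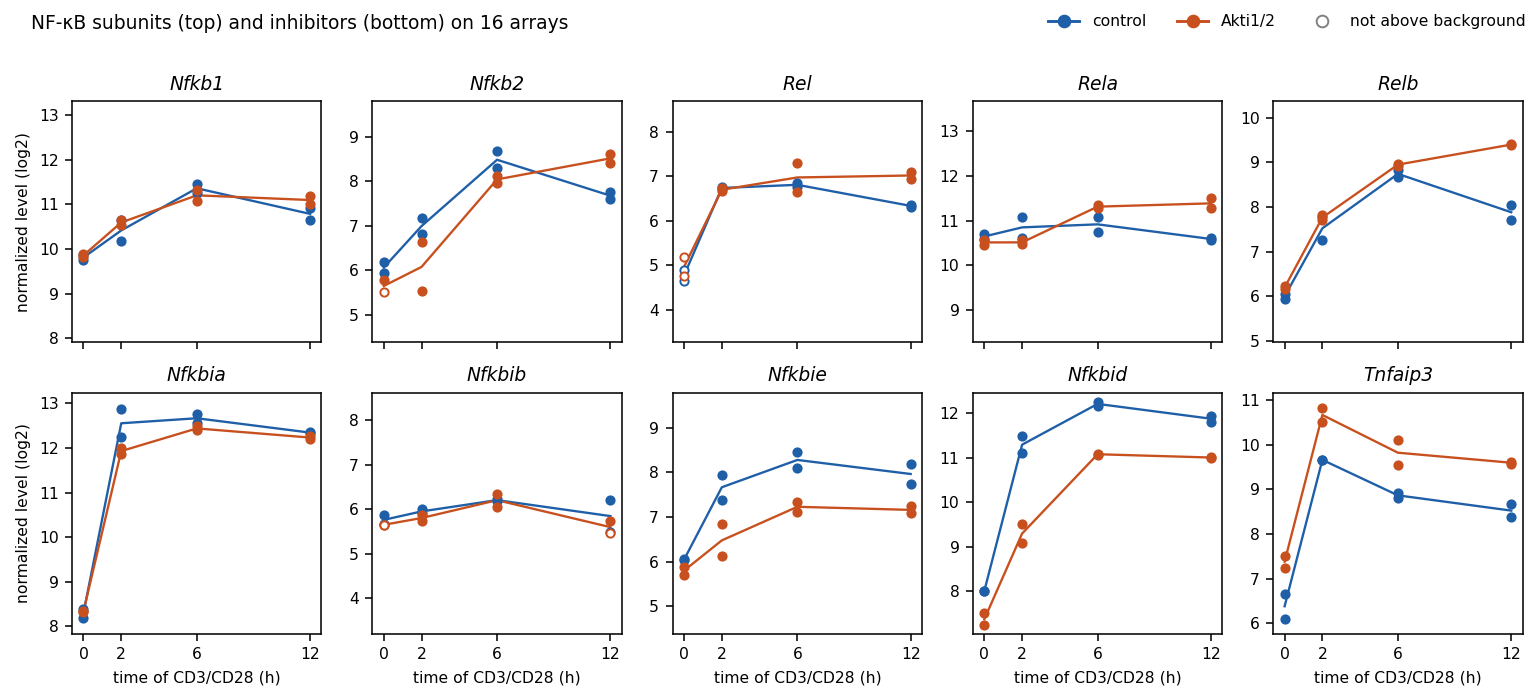
Normalized log2 level of each gene on the 16 arrays against hours of CD3/CD28 stimulation. Points are single arrays, lines join the means of 2 arrays, open points are not above background, and every panel spans the same number of log2 units around its own centre, so that slopes can be compared between panels but heights cannot. Nfkbia, Nfkbid and Tnfaip3 climbed by more than 3 log2 units within 2 h in control cells, Relb lay 1.52 apart between treatments at 12 h, and Tnfaip3 lay higher with Akti1/2 at every time.

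Among the inhibitors, Nfkbia encodes IκBα, the inhibitor that NF-κB itself restores after activation. Its level in control cells was 8.40 and 8.20 on the 2 arrays before stimulation, 12.87 and 12.24 after 2 h, 12.57 and 12.77 after 6 h and 12.36 and 12.34 by 12 h. The gene was near its highest level at the first time measured and stayed there, with no called change between neighbouring times. The rise from 0 h was 4.26 (SE 0.17, a 19.1-fold change, adjusted p = 1.43e-08) at 2 h, 4.37 at 6 h and 4.05 at 12 h. With Akti1/2 the arrays read 8.33 and 8.34 before stimulation, 11.87 and 12.00 after 2 h, 12.49 and 12.39 after 6 h and 12.19 and 12.28 by 12 h. The rises in this arm were 12.1-, 17.2- and 14.9-fold, against 19.1-, 20.7- and 16.5-fold without the inhibitor. At 2 h both Akti1/2 arrays lay below both control arrays, by 0.62 on average (1.54-fold lower, adjusted p = 0.0166), and the call was lost without replicate 1 of the control cells (-0.31, adjusted p = 0.156) or of the Akti1/2 cells (-0.56, adjusted p = 0.0795) at that time and in a fit of those 4 arrays alone (adjusted p = 0.116). The difference was -0.23 at 6 h and -0.11 at 12 h, and neither was called (95% intervals -0.59 to 0.14 and -0.48 to 0.25). The difference between the responses at 2 h, tested as an interaction, was -0.66 (adjusted p = 0.104), and passed without replicate 2 of the control cells at 2 h (-0.97, adjusted p = 0.0175).

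Nfkbid encodes IκBNS, a nuclear IκB protein that acts on bound NF-κB dimers and is itself induced by T cell receptor signals. This gene gave the largest difference of the family between treatments. In control cells it read 8.02 and 8.00 before stimulation, 11.48 and 11.10 after 2 h, 12.25 and 12.16 after 6 h and 11.94 and 11.81 by 12 h. With Akti1/2 it read 7.25 and 7.50, 9.52 and 9.07, 11.06 and 11.09, and 10.98 and 11.02 at the same times. The Akti1/2 arrays lay below the control arrays at every time with no overlap, and at 2 h the gap was several times the spread between duplicates. The rise in control cells was 3.28 at 2 h, 4.19 at 6 h and 3.86 at 12 h (9.71-, 18.3- and 14.5-fold), and with Akti1/2 it was 1.92, 3.70 and 3.63 (3.79-, 13- and 12.3-fold). The level was 1.99 lower with Akti1/2 at 2 h (SE 0.16, 3.98-fold, adjusted p = 8.94e-06), 1.13 lower at 6 h (2.19-fold, adjusted p = 1.74e-04) and 0.87 lower at 12 h (1.83-fold, adjusted p = 6.56e-04). At 0 h the difference was -0.64, not called (adjusted p = 0.511). The change from 0 h was smaller with Akti1/2 at 2 h by 1.36 (SE 0.22, interaction, adjusted p = 0.00561), with -1.19 on one chip and -1.52 on the other. At 6 h and 12 h the interaction was -0.49 and -0.23 and was not called (adjusted p = 0.143 and 0.458). From 2 to 6 h Nfkbid still rose in both arms, by 0.91 in control cells and by 1.78 with Akti1/2.

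Nfkbie encodes IκBε, a cytoplasmic inhibitor that acts in later feedback. It followed the same course at a smaller scale. Control cells read 6.03 and 6.06 before stimulation, 7.95 and 7.39 after 2 h, 8.11 and 8.45 after 6 h and 7.75 and 8.19 by 12 h, and Akti1/2 cells read 5.89 and 5.71, 6.12 and 6.84, 7.34 and 7.12, and 7.24 and 7.08. After stimulation all 6 Akti1/2 arrays lay below the control arrays of their time. The rises were 1.62, 2.24 and 1.92 in control cells at 2, 6 and 12 h, and 0.68, 1.43 and 1.36 with Akti1/2. The level was lower with Akti1/2 by 1.19 at 2 h (SE 0.24, 2.28-fold, adjusted p = 0.00371), by 1.05 at 6 h (2.07-fold, adjusted p = 0.00451) and by 0.80 at 12 h (1.75-fold, adjusted p = 0.0148). The difference in response was -0.95, -0.81 and -0.56 and was called at none of these times (adjusted p = 0.103, 0.116 and 0.232). The lower level at 2 h was not called in a fit of those 4 arrays alone (adjusted p = 0.0519). Without replicate 2 of the Akti1/2 cells at 2 h the interaction at 2 h passed (adjusted p = 0.0455). The small rise with Akti1/2 at 2 h (adjusted p = 0.0416) was lost in 10 of 23 alternatives, 7 of them without a single array at 0, 2 or 12 h (adjusted p = 0.0527 to 0.363), and the lower level at 12 h was lost without replicate 2 of the control cells (-0.59, adjusted p = 0.129) or of the Akti1/2 cells at 12 h (-0.73, adjusted p = 0.0807). Nfkbib, which encodes IκBβ, moved little, and its 16 levels spanned 5.47 to 6.35. Its changes at 6 h were 0.44 in control cells (adjusted p = 0.117) and 0.55 with Akti1/2 (adjusted p = 0.0465), a call that 18 of 22 alternatives lost. The gene was not above background on 3 of the 16 arrays.

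Tnfaip3 encodes A20, a ubiquitin-editing enzyme that ends signaling upstream of the IκB kinase. It was the only gene of the 10 that was called higher with Akti1/2 at 2, 6 and 12 h, and the only one whose mean level was highest at 2 h in both arms. Control cells read 6.09 and 6.66 before stimulation, 9.66 and 9.66 after 2 h, 8.92 and 8.81 after 6 h and 8.37 and 8.67 by 12 h. Akti1/2 cells read 7.51 and 7.24, 10.83 and 10.51, 9.54 and 10.10, and 9.62 and 9.57. At each time both Akti1/2 arrays lay above both control arrays, including before stimulation. Control cells rose over 0 h by 3.28, 2.49 and 2.14 at the 3 later times (9.73-, 5.61- and 4.42-fold), and Akti1/2 cells by 3.29, 2.44 and 2.22 (9.78-, 5.44- and 4.65-fold). The difference in level was 1.01 at 2 h (SE 0.21, 2.01-fold, adjusted p = 0.0046), 0.96 at 6 h (1.94-fold, adjusted p = 0.00364) and 1.07 at 12 h (2.1-fold, adjusted p = 0.00111). At 0 h it was 1.00 and was not called (SE 0.21, 95% interval 0.54 to 1.46, adjusted p = 0.333), with 1.42 on one chip and 0.58 on the other. The interaction was 0.01, -0.04 and 0.07 at 2, 6 and 12 h, with 95% intervals of -0.64 to 0.65, -0.69 to 0.60 and -0.57 to 0.72, and its sign differed between the chips at all 3 times. From 2 to 6 h the level fell by 0.80 in control cells (adjusted p = 0.0242) and by 0.85 with Akti1/2 (adjusted p = 0.0106). The fall in control cells lost its call without any 1 of the 4 control arrays at 2 and 6 h (-0.85 to -0.74, adjusted p = 0.0758 to 0.129), and that with Akti1/2 without replicate 1 at 2 h (-0.69, adjusted p = 0.0727) or at 6 h (-0.57, adjusted p = 0.111).

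Among the subunits, Relb and Nfkb2 encode RelB and p100, the precursor of p52, which pair in the noncanonical branch of the pathway. Relb read 6.05 and 5.94 before stimulation, 7.79 and 7.26 after 2 h, 8.82 and 8.66 after 6 h and 7.71 and 8.05 by 12 h in control cells, and 6.17 and 6.22, 7.70 and 7.83, 8.93 and 8.97, and 9.40 and 9.40 with Akti1/2. Both arms climbed to 6 h with no called difference between them, after which control cells came down and Akti1/2 cells did not. In control cells it rose from 0 h by 1.53, 2.75 and 1.89 (2.88-, 6.71- and 3.7-fold), and the Akti1/2 cells gave 1.57, 2.76 and 3.21 (2.97-, 6.76- and 9.23-fold). Between 6 and 12 h the control level fell by 0.86 (adjusted p = 0.00456; without replicate 1 of the control cells at 12 h it fell by 0.69, adjusted p = 0.0544). At 12 h the level was 1.52 higher with Akti1/2 (SE 0.16, 2.86-fold, adjusted p = 1.02e-05), and the interaction was 1.32 (SE 0.23, adjusted p = 9.38e-04), with 1.23 on one chip and 1.41 on the other.

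Nfkb2 read 5.95 and 6.18 before stimulation, 6.81 and 7.17 after 2 h, 8.67 and 8.29 after 6 h and 7.75 and 7.60 by 12 h in control cells. With Akti1/2 it read 5.79 and 5.51, 6.63 and 5.53, 7.96 and 8.12, and 8.42 and 8.61. The duplicates at 2 h with Akti1/2 lay further apart than those of any other group, and the level of 5.51 at 0 h was not above background. The change from 0 h in control cells was 0.93 at 2 h (adjusted p = 0.0524), 2.42 at 6 h and 1.61 at 12 h, and with Akti1/2 it was 0.43 (adjusted p = 0.242), 2.39 and 2.86. The 2 h changes were open to the duplicates at 2 h with Akti1/2: without either of these arrays the control change passed, and the Akti1/2 change was -0.12 without replicate 1 (adjusted p = 0.686) and passed without replicate 2. Against control cells, the level was 0.92 lower with Akti1/2 at 2 h (adjusted p = 0.0278), 0.44 lower at 6 h (not called, adjusted p = 0.236) and 0.84 higher at 12 h (adjusted p = 0.0242). The 2 h difference was lost without replicate 2 of the Akti1/2 cells (-0.37, adjusted p = 0.255) or of the control cells (-0.74, adjusted p = 0.148) at 2 h, and the 12 h difference was lost without any 1 of the 4 arrays at 12 h (0.74 to 0.93, adjusted p = 0.057 to 0.116). The interaction at 12 h was 1.25 (SE 0.39, adjusted p = 0.0275) and lost its call without any 1 of those 4 arrays or replicate 2 of either group at 0 h (1.11 to 1.35, adjusted p = 0.0504 to 0.0888).

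Rela encodes p65, the subunit that is present in resting T cells and carries a transactivation domain. In control cells its level was 10.58 and 10.71 before stimulation, 11.09 and 10.61 after 2 h, 10.74 and 11.09 after 6 h and 10.61 and 10.57 by 12 h, and no change from 0 h was called (0.20, 0.27 and -0.06, adjusted p = 0.449, 0.241 and 0.832). With Akti1/2 it was 10.46 and 10.57 before stimulation, 10.56 and 10.47 after 2 h, 11.35 and 11.28 after 6 h and 11.28 and 11.50 by 12 h. In that arm the duplicates at 6 and 12 h lay above all 4 earlier arrays. The rise was 0.80 at 6 h (SE 0.16, 1.74-fold, adjusted p = 0.00219) and 0.88 at 12 h (1.84-fold, adjusted p = 8.01e-04). The level exceeded that of control cells by 0.40 at 6 h, which was not called (adjusted p = 0.0693), and by 0.80 at 12 h (1.74-fold, adjusted p = 0.00128). The 6 h difference passed in 5 of 23 alternatives, 3 of them without replicate 2 of the control cells at 6 h or without either control array at 2 h (adjusted p down to 0.035). The interaction was 0.53 at 6 h (adjusted p = 0.12) and 0.93 at 12 h (SE 0.23, adjusted p = 0.00768), with 0.83 on one chip and 1.03 on the other.

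Rel encodes c-Rel, which is needed for cytokine and growth responses of T cells, and Nfkb1 encodes p105, the precursor of p50. Rel was not above background on any of the 4 arrays at 0 h and was above it on all 12 later ones. Its rise is therefore given as a bound against the lowest level above background: at least 2.14-, 2.25- and 1.62-fold over the 3 times without the inhibitor, and at least 2.06-, 2.5- and 2.57-fold with it. No test of the bound was made. The limma calls of the rise (adjusted p at most 9.97e-05) used the levels at 0 h that were not above background. Stimulated control cells read 6.71 and 6.76 after 2 h, 6.86 and 6.76 after 6 h and 6.36 and 6.31 by 12 h, and Akti1/2 cells read 6.66 and 6.73, 6.64 and 7.31, and 7.11 and 6.93. The arms overlapped at 2 and 6 h. The 12 h levels did not overlap and differed by 0.68 (SE 0.19, 1.6-fold, adjusted p = 0.0112), a call lost without replicate 2 of the control cells (0.66, adjusted p = 0.055) or replicate 1 of the Akti1/2 cells at 12 h (0.59, adjusted p = 0.0781). The interaction of Rel at 12 h was 0.49 (adjusted p = 0.194) and has no measured level at 0 h behind it. Nfkb1 read 9.86 and 9.77 before stimulation, 10.64 and 10.19 after 2 h, 11.26 and 11.46 after 6 h and 10.66 and 10.92 by 12 h in control cells, and 9.82 and 9.90, 10.64 and 10.55, 11.32 and 11.09, and 11.01 and 11.19 with Akti1/2. Every stimulated array lay above the unstimulated ones of its arm. Nfkb1 rose in control cells by 0.61 at 2 h (adjusted p = 0.0303), 1.55 at 6 h and 0.98 at 12 h, and with Akti1/2 by 0.74, 1.35 and 1.24. The 2 h call in control cells was lost in 6 of 23 alternatives, among them without either control array at 0 h or without replicate 1 at 2 h (0.38 to 0.65, adjusted p = 0.108 to 0.187). Nfkb1 was called between treatments at no time, and at 12 h the difference was 0.31 (95% interval -0.03 to 0.65, adjusted p = 0.123). Its level fell by 0.57 from 6 to 12 h in control cells (adjusted p = 0.03), which was lost without either array at 6 h or replicate 1 at 12 h (-0.68 to -0.45, adjusted p = 0.063 to 0.209).

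In cells given Akti1/2, 7 of the 10 genes were higher at 2 h than at 0 h, all 10 at 6 h and 9 at 12 h (all but Nfkbib), and none was lower. Over all tested genes 17.8%, 15.4% and 21.1% were called higher. The comparisons with and without Akti1/2 share no arrays with each other but each shares its own arrays at 0 h across times.

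Set against control cells of the same time, 0 of the 10 genes differed at 0 h, where 0.0541% of all tested genes were called (limma, adjusted p under 0.05). At an unadjusted p under 0.05 there were 2 there, Tnfaip3 (1.00) and Nfkbid (-0.64), and the J5 score described below called 0. At 2 h 5 differed, 4 lower (Nfkb2, Nfkbia, Nfkbie and Nfkbid) and 1 higher (Tnfaip3), against 28.4% of all genes called in either direction. At 6 h 3 differed, 2 lower (Nfkbie and Nfkbid) and 1 higher (Tnfaip3), against 37.5% of all genes, a share of members no larger than the background. At 12 h 7 differed, 5 higher (Nfkb2, Rel, Rela, Relb and Tnfaip3) and 2 lower (Nfkbie and Nfkbid), against 49% of all genes. The median difference of the 10 genes was -0.04 at 0 h, -0.24 at 2 h, -0.08 at 6 h and 0.50 at 12 h, and that of all tested genes lay within 0.02 of 0 at each time. Of the subunits, 4 of 5 were higher at 12 h, where 24.2% of all tested genes were called higher. The calls of Nfkb2 and Rel there were lost without single arrays at 12 h. Of the IκB genes, those for IκBε and IκBNS stayed lower at all 3 times after stimulation, the 12 h call of Nfkbie being lost without single arrays as well.

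**Figure D2:**
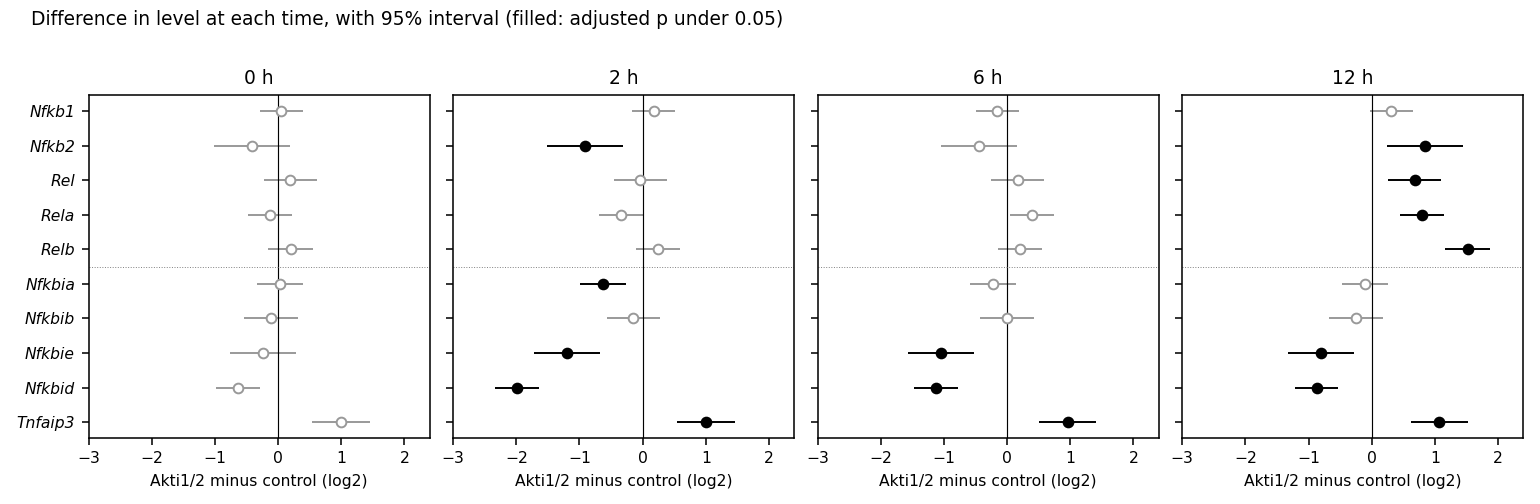
Difference in log2 level between Akti1/2 and control cells for each gene at 0, 2, 6 and 12 h, with its 95% interval from the limma fit (2 arrays per group). Filled points were called at an adjusted p under 0.05, and the dotted line separates the subunits (above) from the inhibitors. Nfkbie and Nfkbid lie to the left from 2 h on, Tnfaip3 to the right at every time, and 4 subunits move to the right at 12 h.

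A difference in the response to CD3/CD28 cannot be told apart here from a longer time since Akti1/2 was added. No unstimulated cells were measured at 2, 6 or 12 h. The test of whether the change from 0 h differed between the arms called fewer of the 10 genes. It called Nfkbid (lower) at 2 h, none at 6 h, and Nfkb2, Rela and Relb (higher) at 12 h. Among all tested genes 8.41%, 19.5% and 32.5% were called at these times, so that the share of the 10 genes (1, 0 and 3 of 10) was near or below the background. At 6 h the count of 0 was 3 at an unadjusted p under 0.05 (Rela, Nfkbie and Nfkbid), and at the adjusted threshold it became 1 in a fit of the groups compared alone (Nfkbie, adjusted p = 0.0397) and 2 in limma without background correction (Nfkbie, adjusted p = 0.0305, and Nfkbid, adjusted p = 0.0084). The medians of the 10 genes were -0.22, -0.04 and 0.17.

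Between neighbouring times, control cells gave 4 genes higher (Nfkb1, Nfkb2, Relb and Nfkbid) and 1 lower (Tnfaip3) from 2 to 6 h, where 14.6% of all genes were called, and 2 lower (Nfkb1 and Relb) from 6 to 12 h, where 13.6% were. With Akti1/2, 7 were higher from 2 to 6 h (Nfkb1, Nfkb2, Rela, Relb, Nfkbia, Nfkbie and Nfkbid) and 1 lower (Tnfaip3), against 30.2% of all genes, and 0 were called from 6 to 12 h, against 17.8% (2 at an unadjusted p under 0.05, Relb and Nfkbib, and 0 by the J5 score). A single gene was called in that last step under some alternatives, such as Relb without either control array at 2 h (adjusted p = 0.0323). From 2 to 6 h Nfkb2 rose by 1.49 in control cells and by 1.96 with Akti1/2, and Relb by 1.22 and 1.19. Nfkb1 rose by 0.95 and 0.61. With Akti1/2, the calls of Nfkb1, Nfkbia (0.51) and Nfkbie (0.75) in this step were lost without single Akti1/2 arrays: replicate 2 at 2 h or 1 at 6 h for Nfkb1, any array at 0, 2 or 6 h for Nfkbia, and replicate 1 at 2 or 6 h for Nfkbie (adjusted p up to 0.0994, 0.161 and 0.261). In a fit of the groups compared alone 4 of these 8 calls were left. The mean level of 9 genes was highest at 6 h in control cells, Tnfaip3 being the exception. By the test, only Nfkb1 and Relb among these 9 differed both from 2 to 6 h and from 6 to 12 h. With Akti1/2 the mean level was highest at 12 h for Nfkb2, Rel, Rela and Relb, though none of these 4 differed between 6 and 12 h by the test.

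The J5 score, which the study used, sets the difference between 2 group means of untransformed intensity against the average size of that difference among all genes on the array, with no error term. It favours bright genes, and beyond a score of 20 it called 7 of the 30 changes of the 10 genes from 0 h in control cells (Nfkbia and Nfkbid at all 3 times and Nfkb1 at 6 h), where 0.682% of all changes were called. It called 4 of 30 with Akti1/2 (Nfkbia at all 3 times and Nfkbid at 6 h), against 0.728% of all. Between treatments it called 2 of 40, Nfkbia at 2 h (-23.1) and Nfkbid at 6 h (-31.2), against 0.691%, and 4 of 40 steps between times, against 0.684%. The J5 shares run over all 18138 genes on the array and not over the 7395 tested by limma. They thus include many dim genes, which the score rarely calls, and cannot be set beside the limma shares. Relb, Nfkb2, Nfkbie and Tnfaip3, whose differences passed limma's test, did not reach 20 in any comparison.

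The patterns of the 10 genes were compared by Pearson's r over the 8 group means, as a description in which all points share the same arrays. Nfkbie and Nfkbid were most alike (0.977), followed by Rel and Nfkbia (0.968) and by Nfkb1 and Relb (0.961), and Rela and Nfkbib were least alike (0.281). Outside the family, the genes most like each member over the 8 means were Lilrb4 (0.991) and Jak2 (0.985) for Nfkb1, Ralgds (0.98) and Gch1 (0.97) for Nfkb2, Zfp513 (0.985) and Bcl6 (0.978) for Rel, Dmap1 (0.977) and Zfp282 (0.974) for Rela, and Gldc (0.985) and Tnip1 (0.982) for Relb. For the inhibitors they were 0610010E21Rik (0.989) and Zc3h12a (0.985) for Nfkbia, Lix1 (0.94) and Ttc14 (0.934) for Nfkbib, Traf3 (0.978) and Csf2 (0.975) for Nfkbie, 6330578E17Rik (0.981) and Traf3 (0.973) for Nfkbid, and Crk (0.986) and Gpr171 (0.97) for Tnfaip3. Likeness ignores size: the means of Zfp513 spanned 0.61 log2 units and those of Csf2 spanned 6. The r values of Rel include its means at 0 h, which rest on levels not above background.

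**Figure D3:**
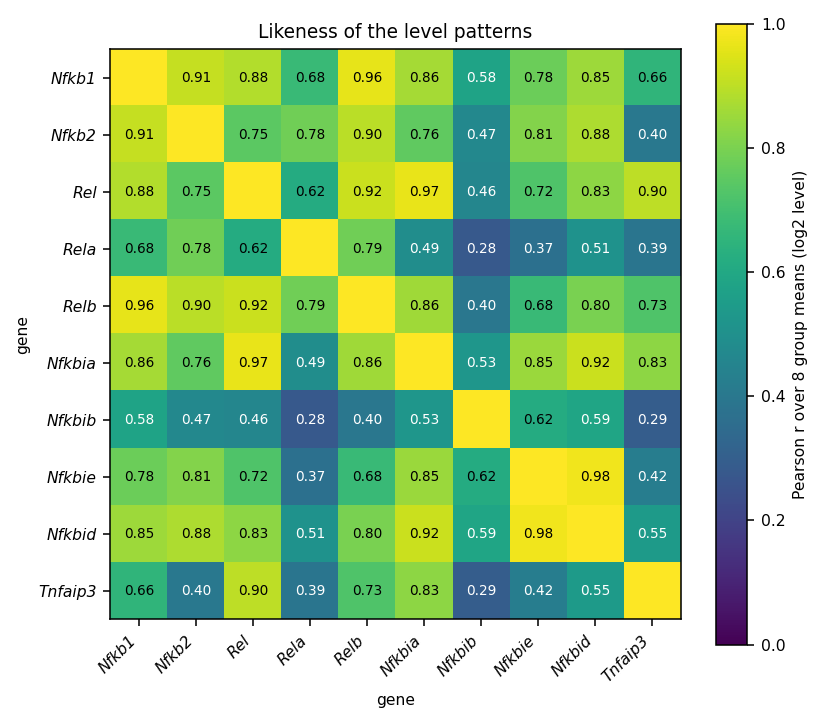
Pearson's r between the log2 level patterns of the 10 genes over the 8 group means, from 0 (dark) to 1 (light). The pairs Nfkbie with Nfkbid and Rel with Nfkbia are the lightest, and the rows of Rela and Nfkbib the darkest.

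The rest of the pathway was read from 3 lists. The first held 17 kinases and adaptors upstream of NF-κB, all tested, among them the IκB kinase subunits, Bcl10 and Malt1. In control cells 2, 3 and 4 of these were higher and 0, 1 and 2 lower at 2, 6 and 12 h, and the median change was 0.04, 0.17 and 0.07. Over all tested genes 10.3%, 27.5% and 27.8% were called in either direction, close to the shares of this list. The response differed with Akti1/2 for 1 of the 17 at 2 h (lower), 4 at 6 h (3 higher and 1 lower) and 5 at 12 h (all higher), at medians of -0.10, -0.07 and 0.20, against -0.01, -0.01 and -0.02 for all genes. Over all tested genes 8.41%, 19.5% and 32.5% were called, and the shares of this list were close to these. The count of 3 at 6 h was 1 without any single array at 0 h, without replicate 1 of the control cells at 6 h and in a fit of the groups compared alone. The 5 at 12 h were Ikbkg, Malt1, Prkcq, Ripk1 and Map3k7ip2 (the older symbol of Tab2 in the files), and the count fell to 1 without replicate 1 of either group at 12 h, to 2 without replicate 1 of the control cells or replicate 2 of the Akti1/2 cells at 0 h, and to 3 without replicate 2 of the control cells or replicate 1 of the Akti1/2 cells at 0 h or replicate 2 of the Akti1/2 cells at 12 h. Ripk1, a kinase that binds TNF receptors, changed by -0.44 in control cells (not called, adjusted p = 0.0746) and rose by 0.49 with Akti1/2 at 12 h. Malt1, a paracaspase, read 5.32 and 5.77 at 12 h in control cells and 6.50 and 6.96 with Akti1/2, the first of these not above background. At 0 h, replicate 2 of its Akti1/2 cells (5.40) was not above background either. The interaction of Malt1 was 1.61 (SE 0.55, adjusted p = 0.0391), a call that 8 alternatives lost, 6 of them without a single array at 0 or 12 h. Leaving out single arrays gave 1.38 to 1.85. Ikbke, an IκB kinase-like enzyme, differed in response by -1.05 at 2 h (adjusted p = 0.0445), but it was not above background at 0 h in control cells, so that this rests on a level not measured there, and 18 alternatives lost the call. The interaction of Ripk1 was 0.93 (SE 0.24, adjusted p = 0.0108) and was lost without replicate 1 of the control cells (adjusted p = 0.051) or of the Akti1/2 cells (adjusted p = 0.0511) at 12 h.

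The second list held other inhibitors and modulators, of which 13 of 16 were on the array and 12 were tested. Their response differed for none at 2 h, for 3 at 6 h (Nfkbil1 higher, and Bcl3 and Commd1 lower) and for 2 at 12 h (Tnip1 higher and Commd1 lower, the latter lost without single arrays at 0 or 12 h), at medians of -0.22, -0.30 and 0.09. Over all tested genes 8.41%, 19.5% and 32.5% were called, and at 2 h 4 of the 12 had an unadjusted p under 0.05. Bcl3, a nuclear IκB protein, read 8.73 and 8.91 at 6 h in control cells and 7.16 and 7.58 with Akti1/2. That is 1.45 lower (SE 0.21, adjusted p = 2.52e-04), while its interaction of -1.68 rests on a 0 h level in control cells that was not above background. Tnip1, which encodes a partner of A20, read 8.65 and 8.46 at 12 h in control cells and 9.40 and 9.26 with Akti1/2, and its interaction was 0.94 (SE 0.18, adjusted p = 0.00215). Nfkbil1, a gene named for its likeness to IκB, changed by -0.20 in control cells and by 0.53 with Akti1/2 at 6 h, and the interaction of 0.73 (adjusted p = 0.0455) was lost in 15 alternatives, 11 of them without a single array at 0, 2 or 6 h (adjusted p up to 0.16).

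Textbook NF-κB target genes made up the third list, with 30 of 42 tested and 20 of these above background on all 16 arrays. A gene needed only 2 arrays above background to be tested, so that it could enter through the groups where it was high. Ebi3, called smaller at 12 h, was above background on 2 arrays, Lta on 8, Fas on 12, Cxcl10 and Gadd45b on 13 each, and Irf8 on 15. The counts therefore include responses that rest on levels not measured. Of the 30, the change from 0 h was smaller with Akti1/2 for 8 at 2 h, 16 at 6 h and 11 at 12 h, and larger for 0, 1 and 3. Over all tested genes 4.16%, 9.24% and 16.2% were called smaller, and 8.41%, 19.5% and 32.5% in either direction. The medians were -0.42, -0.81 and -0.54. Over the alternatives the counts of smaller responses ran from 6 to 10, 10 to 20 and 8 to 13, and the count at 6 h was 10 without replicate 1 of the control cells at 6 h and without replicate 1 of the Akti1/2 cells at 0 h. The 3 genes named by rule were Tnf (-2.56 at 2 h), Csf2 (-2.29 at 2 h) and Lta (-2.03 at 12 h), all cytokines. Lta read 7.54 and 7.61 at 12 h in control cells and 5.68 and 5.70 with Akti1/2 and was at background on all 4 arrays at 0 h. The medians of the 10 subunits and inhibitors at the same times (-0.22, -0.04 and 0.17) lay nearer 0, and no test was made of the difference between the lists.

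**Figure D4:**
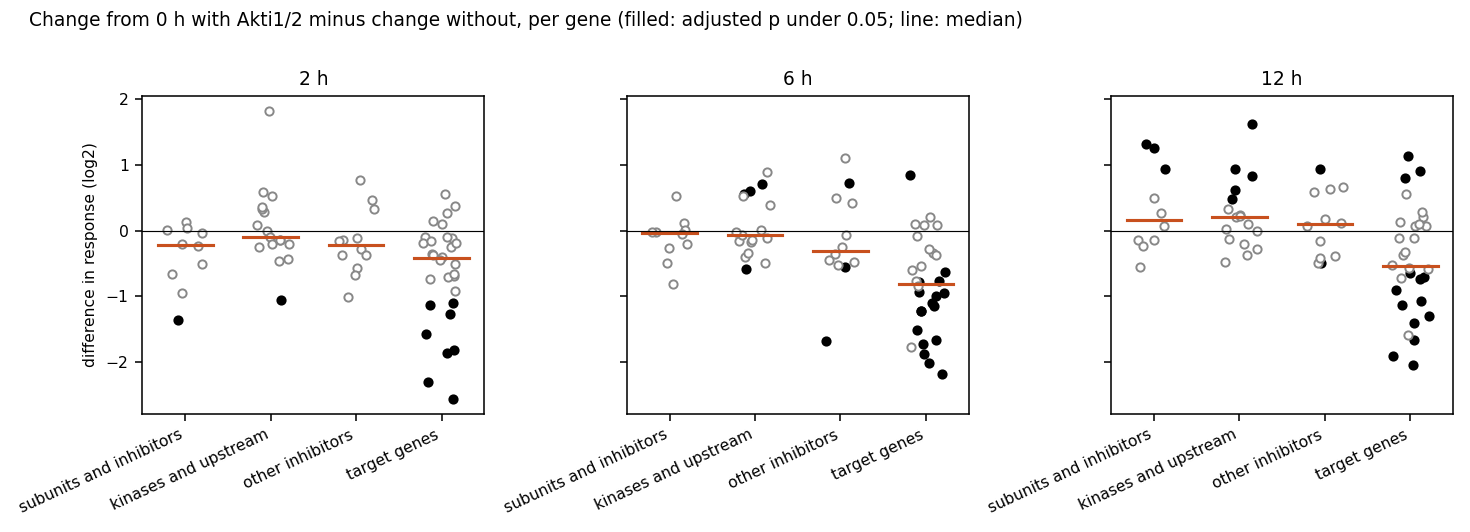
Interaction, that is how much larger (above 0) or smaller the log2 change from 0 h was in Akti1/2 cells, at 2, 6 and 12 h. The lists are the 10 subunits and inhibitors, 17 kinases and upstream genes, 12 other inhibitors and 30 target genes. Each point is 1 gene, filled where called at an adjusted p under 0.05, and the line is the median of the list. The target genes spread downward at each time, and at 12 h the called subunits and kinases lie above 0.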

How the data were processed

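D10 RNA was hybridized to 16 Illumina mouse RefSeq bead arrays. The authors deposited non-normalized bead intensity for 18138 genes with a detection p-value per array, and negative control intensity. Intensities were corrected with normexp on 798 negative controls, quantile-normalized and log2-transformed (neqc of limma 3.58.1 in R 4.3.3, offset 16). The deposited detection p-values were not used. They were computed anew as the share of the 798 negative controls that reached a gene's intensity. Genes with a detection p-value under 0.01 on at least 2 arrays were tested, 7395 in all, in 1 limma fit of the 8 group means with 17 comparisons, Benjamini-Hochberg adjusted within each. The array number limits the precision (8 residual degrees of freedom). Genes named beyond the members were the 3 of each pathway list with the largest called interaction and the 2 closest in pattern to each member, and other list genes were named to spell out small counts after their values were seen. Members and lists were chosen with earlier results of these data known. Of the upstream list, 1 gene is not reported here. Alternatives were other normalizations and filters, replicate and chip blocks, fits of the groups compared alone, the J5 score and leaving out each array. Counts of alternatives that lost or gained a call leave out the J5 score. Scripts were tested on simulated data. Figures used matplotlib 3.10.9.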

Additional observations from a re-analysis of the deposited data

Results flagged for a closer look

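The change from 0 h differed between Akti1/2 and control cells, by limma's interaction test over all genes, for 4 of the subunit and inhibitor genes, 1 of 10 at 2 h and 3 of 10 at 12 h, where 8.41% and 32.5% of all tested genes were called, so that these shares do not set the family apart. The response of Nfkbid was smaller with Akti1/2 at 2 h, by -1.36 on the log2 scale (adjusted p = 0.00561). At 12 h the responses were larger with Akti1/2 for Relb (1.32, adjusted p = 9.38e-04), Rela (0.93, adjusted p = 0.00768) and Nfkb2 (1.25, adjusted p = 0.0275), the last of which lost its call in 7 of 22 alternatives. Each of these 4 differences had the same sign on both chips, which hold the same arrays that made the calls. The same held for all 83 called comparisons of the 10 genes and for 141 of all 170, so that it is no separate support.

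Among the kinases and upstream genes the difference was 1.61 for Malt1 and 0.93 for Ripk1 at 12 h and -1.05 for Ikbke at 2 h. Among the other inhibitors it was -1.68 for Bcl3 and 0.73 for Nfkbil1 at 6 h and 0.94 for Tnip1 at 12 h. Among the target genes it was -2.56 for Tnf and -2.29 for Csf2 at 2 h and -2.03 for Lta at 12 h. Bcl3, Ikbke and Lta were not above background at 0 h in control cells, so that their differences rest on levels not measured there. Malt1 was not above background on replicate 2 at 0 h with Akti1/2 and on replicate 1 at 12 h in control cells.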

How the results depend on the processing

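The 10 genes gave 83 called comparisons. Under the alternatives of the limma fit, none of these changed sign and 17 lost the call under at least 1. For 16 of the 17, leaving out a single array was enough. The J5 score is not counted here. Of the 87 that were not called, 38 changed sign and 22 passed under some alternative of the fit. Leaving out each array in turn gave 22 to 24 of 30 calls for the response in control cells, 24 to 26 of 30 with Akti1/2, 13 to 16 of 40 for Akti1/2 against control, 3 to 5 of 30 for the interaction and 13 to 16 of 40 for the steps between times. The J5 score gave 7, 4, 2 and 4 calls in place of 23, 26, 15 and 15, and it has no form for the interaction. Arrays with the same replicate number did not deviate together (median correlation 0.017, range -0.296 to 0.264, 7 of 28 group pairs over 0.1), so the numbers were not taken to pair the samples, and the replicate block gave the same counts of 23, 26, 15, 4 and 15. In a fit of the groups compared alone, the count of genes that differed between treatments at 2 h was 2 in place of 5.

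None of the values that changed sign was called. Leaving out arrays, the change of Rela in control cells ranged from -0.038 to 0.45 at 2 h and from -0.12 to 0.005 at 12 h, that of Nfkb2 with Akti1/2 at 2 h from -0.12 to 0.98 (called at the upper end, adjusted p = 0.00809), and that of Ikbke with Akti1/2 at 2 h from -0.036 to 0.52. The interaction of Tnfaip3 ranged from -0.28 to 0.29 at 2 h, -0.33 to 0.24 at 6 h and -0.21 to 0.36 at 12 h. With arrays scaled to the same mean it was -0.023 at 2 h and 0.06 at 6 h, and without background correction it was 0.33 at 6 h. The cause was not tested. Rel at 0 h, Nfkbib and Nfkb2 at 0 h lie near background, which limits the precision of their changes. Relb (intensity 169.4 to 200.6) and Nfkbie (157.3 to 199) at 0 h were above background on every array but not far from it. The same held for Tnfaip3 at 0 h in control cells (203 and 207.2). The 99th percentile of the negative controls was 134.7 to 174.2, so that the changes of these genes share this limit.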
